A study of Mus musculus with 2 samples.

Results

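Slow myonuclei of mouse calf muscle are described here. They are nuclei of muscle fibres in which Myh7, the gene of the slow (type I) myosin heavy chain, held most of the adult myosin transcripts. They came from droplet-based single-nucleus RNA-Seq (snRNA-Seq) of gastrocnemius-plantaris (GP) muscle, which counts captured RNA molecules as unique molecular identifiers (UMIs). A nucleus needed at least 500 UMIs and at most 10% mitochondrial UMIs. It was called Myh7-dominant when Myh7, Myh2, Myh1 and Myh4 together had at least 3 UMIs and Myh7 had at least 60% of these. It also had to hold fewer than 3 UMIs over 8 genes of connective tissue, vessel and blood cells (Pdgfra, Dcn, Col1a1, Col3a1, Pecam1, Flt1, Ptprb and Ptprc). This rule kept 321 of 7741 nuclei, 20 of 3833 in the Ctrl library and 301 of 3908 in the cKO library. The nuclei were thus chosen by measured values, the UMIs of 12 genes, so the levels of these 12 genes are given as a description of the choice. The same rule with Myh2, Myh1 or Myh4 in the place of Myh7 gave the 3 classes of fast nuclei used for comparison.

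Slow fibres contract slowly and resist fatigue, and they draw on oxidative metabolism. They carry their own set of contractile proteins: a slow myosin heavy chain, slow light chains, slow troponins and the calcium pump SERCA2 in place of SERCA1. The gastrocnemius is mainly a fast muscle, and its slow fibres lie in its deep part. A muscle fibre holds many nuclei, so a myonucleus shows the fibre type of its own stretch of fibre.

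The study asked how adult muscle responds to the loss of Net39, a transmembrane protein of the nuclear envelope whose gene is Plpp7. cKO mice were HSACreERT2;Net39 fl/fl: the first exon of Plpp7 lies between loxP sites, and the human skeletal actin promoter drives a tamoxifen-inducible Cre in muscle fibres. Ctrl mice were Net39 fl/fl without Cre, so they carried the floxed gene too. The labels give the strain of both groups as B6C3F1, while the study's methods describe founders from B6C3F1 zygotes that were then crossed to C57BL/6N. The mice were 5 months old and were studied 3 months after tamoxifen. Each library held the nuclei of 3 pooled GP muscles, although the sample titles speak of mouse 1, and no nucleus could be traced to an animal. With 1 library per group there was no replicate and no test. Every interval below is an exact 95% interval (Poisson for levels, Clopper-Pearson for shares, conditional for ratios) that covers counting error only. A count of 0 is set to a floor of 3 UMIs, a one-sided limit that lies below the upper bound of the exact interval. The design means that the genotype and the library cannot be told apart. Levels are UMIs summed over the nuclei of a class, divided by all UMIs of that class, scaled to counts per 1000000 (CPM).

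The targeted gene, Plpp7 (chr2:32095528-32110820, GRCm38), was too low in these nuclei to check the labels. It had 2 UMIs in the Ctrl Myh7-dominant nuclei (47.8 CPM, 5.79 to 173) and 9 in those of cKO (13.4 CPM, 6.12 to 25.4), a log2 ratio of -1.84 (-4.11 to 1.41). Myh4-dominant nuclei had 52.7 CPM of it in the Ctrl library and 59.0 CPM in the cKO library. The library chemistry reads the 3′ end of transcripts, so these values do not check a deletion of the first exon. The study itself reports less Net39 mRNA in bulk RNA-Seq of cKO GP muscle, and loss of the protein in a quadriceps Western blot.

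The deposited libraries held 10410316 UMIs in 3863 barcodes (Ctrl) and 8446070 UMIs in 3994 barcodes (cKO). The Myh7-dominant nuclei held 41843 UMIs in Ctrl and 672288 in cKO, so Ctrl levels rest on far fewer molecules and have the wider intervals. Their median depth was close, 2030 UMIs per Ctrl nucleus (range 1049 to 3284) and 1967 per cKO nucleus (range 502 to 9335). The nuclear transcript Malat1 took 22.4% of their UMIs in Ctrl and 33.1% in cKO. The libraries shared 5 barcodes, of which 0 were among the Ctrl and 1 among the cKO Myh7-dominant nuclei. The filter on low counts (at least 10 UMIs expected in the smaller group) tested 395 genes in Ctrl and 4819 in cKO for the comparison with fast nuclei, and 469 genes for cKO against Ctrl.

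Myh7-dominant nuclei made up 0.522% of the Ctrl nuclei (0.319 to 0.805) and 7.70% of the cKO nuclei (6.89 to 8.58). The difference was 7.18 percentage points (6.32 to 8.08). Among nuclei with a dominant myosin, which leaves out the other nuclei from the denominator, the shares were 0.756% (20 of 2644) and 11.2% (301 of 2682). The difference on that denominator was 10.5 points (9.23 to 11.8). The remaining classes differed by less in proportion. Myh2-dominant nuclei made up 4.57% of Ctrl and 8.57% of cKO nuclei, Myh1-dominant nuclei 8.48% and 10.6%, and Myh4-dominant nuclei 55.4% and 41.8%. Nuclei with at least 3 UMIs of the 8 non-muscle genes were 331 in Ctrl and 92 in cKO. When every nucleus was thinned at random to 500 UMIs before the rule was read, 11 Ctrl nuclei (0.287%, 0.143 to 0.513) and 116 cKO nuclei (2.97%, 2.46 to 3.55) were Myh7-dominant. At 1000 UMIs the shares were 0.308% (11 of 3575) and 6.43% (214 of 3329), with 258 Ctrl and 579 cKO nuclei too shallow to enter.

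**Figure D1:**
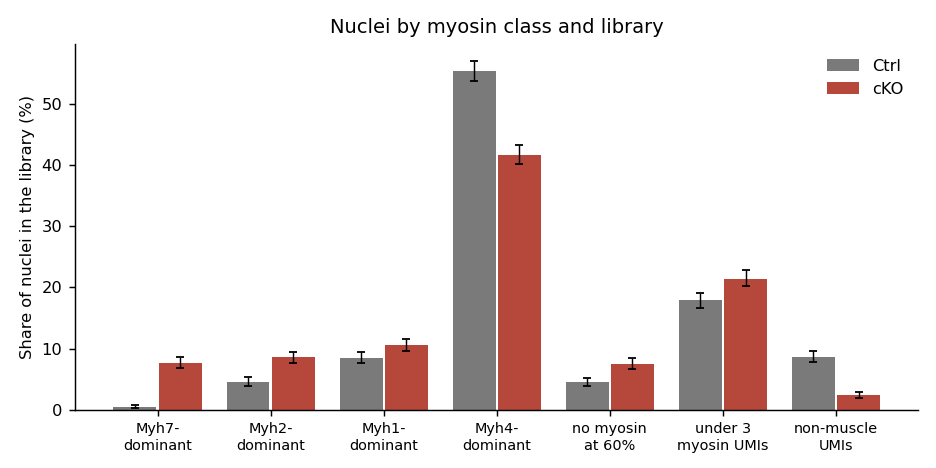
Share of the nuclei of each library (percent, y axis) in each myosin class (x axis), for Ctrl and cKO; bars give the share and error bars its exact 95% binomial interval, which covers counting error only. Myh7-dominant nuclei stood at 0.522% in Ctrl and 7.70% in cKO, and Myh4-dominant nuclei at 55.4% and 41.8%.

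The myosin shares of these nuclei describe the choice, since the rule reads the same UMIs. Myh7 was the sole myosin of the 4 with a UMI in 10 of 20 Ctrl nuclei (50%, 27.2 to 72.8) and in 176 of 301 cKO nuclei (58.5%, 52.7 to 64.1). Summed over the nuclei, Myh7 had 86.0% of the 164 myosin UMIs in Ctrl and 90.9% of the 2685 in cKO. The median was 7 myosin UMIs per nucleus in both libraries, with ranges of 3 to 16 and 3 to 46. The call rested on 3 or 4 myosin UMIs in 1 Ctrl nucleus and in 74 cKO nuclei. Where a second myosin was seen it was mostly Myh4, the IIb myosin of the fastest fibres, with a UMI in 8 Ctrl and 86 cKO nuclei. Myh2 had one in 2 and 32 nuclei and Myh1 in 1 and 30.

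**Figure D2:**
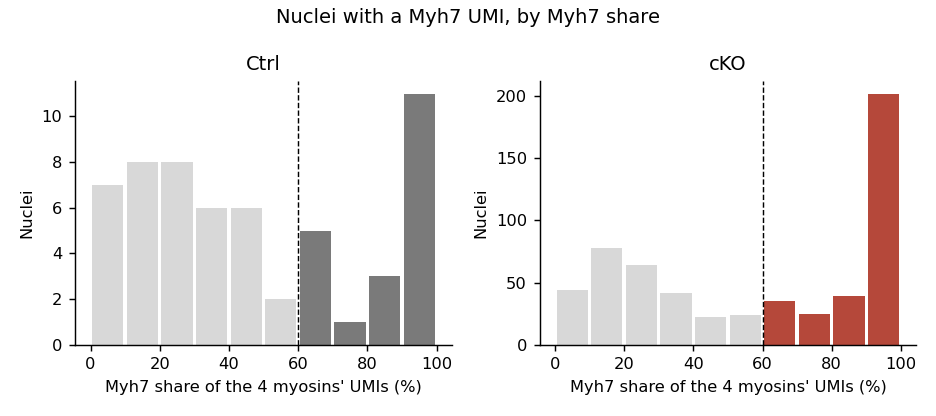
Number of nuclei (y axis) by the share of the UMIs of Myh7, Myh2, Myh1 and Myh4 that came from Myh7 (percent, x axis, bins of 10), for Ctrl (left) and cKO (right), among nuclei with at least 3 myosin UMIs, at least 1 Myh7 UMI and fewer than 3 non-muscle UMIs. The dashed line marks the limit of 60%, coloured bars are the Myh7-dominant nuclei, and the fullest bin of both libraries is the last, with 11 and 202 nuclei.

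At the limit itself the nuclei graded into each other. Just inside, with a Myh7 share of 60% to under 70%, lay 5 Ctrl and 35 cKO nuclei, and just outside, with 50% to under 60%, lay 2 and 24. In cKO, Atp2a2, the gene of SERCA2, stood at 2595 CPM just inside and 2236 CPM just outside, and Tnnt3, the fast troponin T, at 1215 and 1118 CPM. In Ctrl the same values were 2083 and 4746 CPM for Atp2a2 and 1909 and 1117 CPM for Tnnt3, on 7 nuclei in all.

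The genes that mark these nuclei lie on chromosomes 1, 2, 5, 7, 9 and 14 rather than in 1 cluster. Myh7 itself lies at chr14:54970684-54994626 on the minus strand (GRCm38, GENCODE M21), next to Myh6 at chr14:54941921-54966927, the alpha cardiac myosin, whose sequence is nearly identical. The fast myosins Myh2, Myh1 and Myh4 lie side by side on chromosome 11 (from 67171027 to 67260446). Promoter windows of 250 bases before the RefSeq start (GRCm38.p6) were at hand for 7 of the 8 slow markers (all but Atp2a2). Myh7, Tnni1 and Myl2 had 2 windows each, and only the first listed was searched, so other starts of these genes are not covered. The Myl2 window (chr5:122092474-122092723) does not adjoin the GENCODE start of the gene (122100951). The MCAT motif CATTCC, searched on both strands, lay in 3 of the 7 windows, against 12.64% of all 32851 windows of that length. The E-box motif CANNTG lay in 7 of 7, against 66.22%, and the MEF2 motif in 0 of 7, against 2.919%. Motifs were searched separately and may overlap; a match describes letters and is no evidence of binding. The 3 windows with CATTCC or its reverse complement GGAATG (capitals) are printed 5′ to 3′ on the gene's own strand because they belong to genes described below, Myh7, which the rule reads, and Tnnc1 and Myl3, which it does not: Myh7 (chr14:54994627-54994876, minus strand), Tnnc1 (chr14:31208062-31208311, plus strand) and Myl3 (chr9:110763428-110763677, plus strand).
Myh7: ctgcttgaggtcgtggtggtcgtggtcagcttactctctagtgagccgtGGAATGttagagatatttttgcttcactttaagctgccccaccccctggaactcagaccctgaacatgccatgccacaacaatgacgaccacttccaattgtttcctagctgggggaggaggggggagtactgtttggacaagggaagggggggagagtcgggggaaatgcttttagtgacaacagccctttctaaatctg
Tnnc1: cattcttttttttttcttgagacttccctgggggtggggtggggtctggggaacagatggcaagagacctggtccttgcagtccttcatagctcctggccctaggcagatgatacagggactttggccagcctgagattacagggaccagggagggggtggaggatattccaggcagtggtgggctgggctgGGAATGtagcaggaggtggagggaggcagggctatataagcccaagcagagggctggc
Myl3: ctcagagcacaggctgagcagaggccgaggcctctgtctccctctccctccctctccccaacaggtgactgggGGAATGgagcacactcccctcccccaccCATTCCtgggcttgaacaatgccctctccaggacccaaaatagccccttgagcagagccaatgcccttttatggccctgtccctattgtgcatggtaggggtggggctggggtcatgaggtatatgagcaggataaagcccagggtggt

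The slow myosin genes Myh7 and Myh7b each hold a microRNA gene, and these are members of the family called MyomiRs. The mature forms in RefSeq (GRCm38.p6) are given with the seed, bases 2 to 8, in capitals: mmu-miR-208b-3p at chr14:54975710-54975731 (minus strand, inside Myh7) and mmu-miR-499-5p at chr2:155622893-155622913 (plus strand, inside Myh7b). They share 6 of the 7 seed bases, positions 2 to 7. Mature microRNAs were not measured here, so only the host genes have levels.
mmu-miR-208b-3p: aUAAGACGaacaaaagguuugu
mmu-miR-499-5p: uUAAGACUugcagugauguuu

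The label of slow myonuclei was compared with 7 markers that the rule did not read. In cKO, each of the 7 was at least 2-fold higher in Myh7-dominant nuclei than in each of the 3 fast classes. Of all 4819 genes tested, 1.81% met this call (87 genes). Some markers, such as Myl3, passed the low-count filter through the slow nuclei, where they are high. The count of calls therefore describes these genes and is no support for the label, here and in the wider list below. The sums that follow use no filter. Over all genes the median log2 ratio lay between -0.04 and 0.06. Together the 7 markers summed to 8173 CPM in Ctrl and 6334 CPM in cKO Myh7-dominant nuclei. In Myh2-, Myh1- and Myh4-dominant nuclei the sums were 177, 99.7 and 42.7 CPM in Ctrl and 767, 304 and 318 CPM in cKO. The lowest sum of the slow nuclei was thus above the highest sum of any fast class in either library.

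Among the thick-filament genes, Myh7 stood at 3369.7 CPM in Ctrl (141 UMIs) and 3629 CPM in cKO (2440 UMIs), by the choice of the nuclei. Myh7b, a second slow-type myosin heavy chain, stood at 215 CPM in Ctrl (9 UMIs) and 341 CPM in cKO (229 UMIs). In cKO this was 26.8-fold over Myh2-, 36.8-fold over Myh1- and 23.8-fold over Myh4-dominant nuclei. Myl2, the slow regulatory light chain, had 1529.5 CPM in Ctrl (64 UMIs) and 809 CPM in cKO (544 UMIs), and a UMI of it was found in 20 of 20 Ctrl and 211 of 301 cKO nuclei. Its level in cKO was 5.50-fold over Myh2-, 22.5-fold over Myh1- and 17.8-fold over Myh4-dominant nuclei. Myl3, the slow essential light chain, was the lowest of the 7 markers in cKO, with 239 CPM in Ctrl (10 UMIs) and 86.3 CPM in cKO (58 UMIs). It was 4.07-fold over Myh2-, 21.0-fold over Myh1- and 19.2-fold over Myh4-dominant nuclei in cKO. Myh7b, Myl2 and Myl3 exceeded every fast class, and for both light chains the Myh2-dominant nuclei came nearest.

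The 3 subunits of slow troponin, the calcium switch of the thin filament, were each high. Tnnt1, slow troponin T, stood at 1219 CPM in Ctrl (51 UMIs) and 931 CPM in cKO (626 UMIs). Tnnc1, slow troponin C, stood at 836 CPM in Ctrl (35 UMIs) and 427 CPM in cKO (287 UMIs), and Tnni1, slow troponin I, at 526 CPM in Ctrl (22 UMIs) and 207 CPM in cKO (139 UMIs). In the fast classes of Ctrl none of the 3 passed 11.3 CPM. In cKO, Tnnt1 was 8.44-fold over Myh2-, 14.4-fold over Myh1- and 16.3-fold over Myh4-dominant nuclei. The fold over Myh2-dominant nuclei was 9.15 for Tnnc1 (interval 6.37 to 13.5) and 13.3 for Tnni1 (7.2 to 27.2), and higher over the other fast classes.

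Atp2a2, which encodes the calcium pump SERCA2, had a UMI in 19 of 20 Ctrl and 286 of 301 cKO nuclei. Its level was 3609 CPM in Ctrl (151 UMIs) and 3533 CPM in cKO (2375 UMIs). The Myh2-, Myh1- and Myh4-dominant nuclei had 90.7, 68.0 and 26.5 CPM in Ctrl and 413, 167 and 168 CPM in cKO. The slow nuclei of cKO were 8.55-fold over Myh2-, 21.2-fold over Myh1- and 21.0-fold over Myh4-dominant nuclei, with an interval of 7.57 to 9.69 for the smallest of these.

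**Figure D3:**
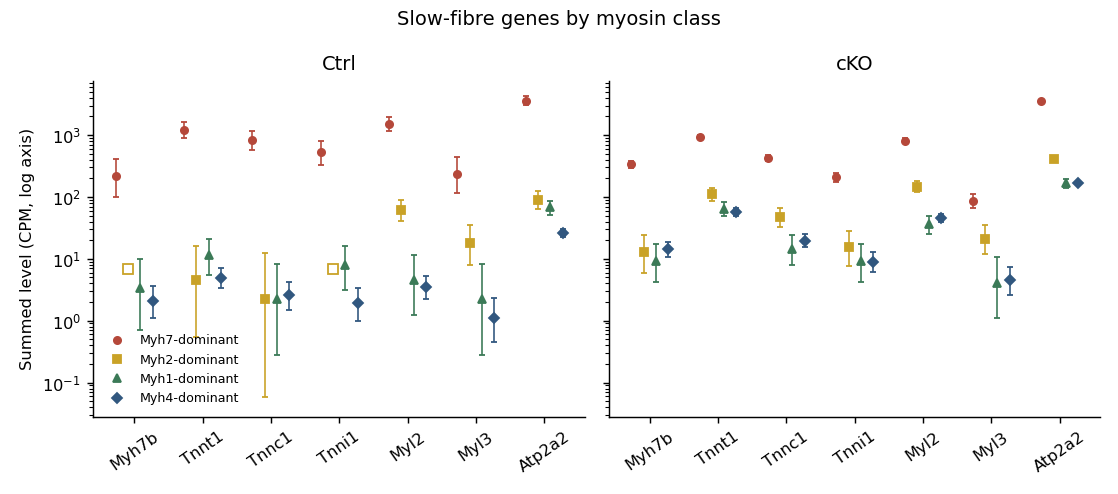
Summed level (CPM, log axis) of the 7 slow markers that the rule did not read (x axis) in Myh7-, Myh2-, Myh1- and Myh4-dominant nuclei, for Ctrl (left) and cKO (right); error bars are exact 95% Poisson intervals, and open symbols stand for 0 UMIs and are drawn at the floor of 3 UMIs. The Myh7-dominant nuclei are the highest class for each gene in both libraries, for Atp2a2 at 3609 and 3533 CPM.

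The same genes were lower in nuclei with transcripts of cells outside the fibres. Nuclei with at least 3 UMIs of the non-muscle genes and fewer than 3 myosin UMIs numbered 198 in Ctrl and 61 in cKO, with medians of 1280.5 and 1265 UMIs. The 7 markers summed there to 172 and 457 CPM, mostly Atp2a2. After thinning to 1000 UMIs, Tnnt1 had a UMI in 60% of the Ctrl and 60.4% of the cKO slow nuclei, against 0.746% and 2.56% of these other nuclei. Atp2a2 had one in 90% and 89.8% of the slow nuclei against 14.2% and 23.1%. Unthinned, the shares for Tnnt1 were 80% and 76.4% against 1.52% and 3.28%, and for Atp2a2 95% and 95% against 18.7% and 34.4%.

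Counted nucleus by nucleus, the slow markers came together. A Ctrl nucleus held a median of 5 of the 7 markers and a cKO nucleus 4. At least 3 of the 7 were found in 20 of 20 Ctrl nuclei (100%, lower bound 83.2%) and in 240 of 301 cKO nuclei (79.7%, 74.7 to 84.1). After thinning to 1000 UMIs the shares were 90% (18 of 20, 68.3 to 98.8) and 58.5% (161 of 275, 52.5 to 64.4). In cKO, 3 nuclei held 0 and 15 held 1 of the markers, so the rule took in some nuclei that show little of the slow set beside Myh7. Among nuclei of undetermined myosin, at least 3 markers were found in 4 of 510 Ctrl and 51 of 571 cKO nuclei at that depth (8.93%, 6.72 to 11.6).

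**Figure D4:**
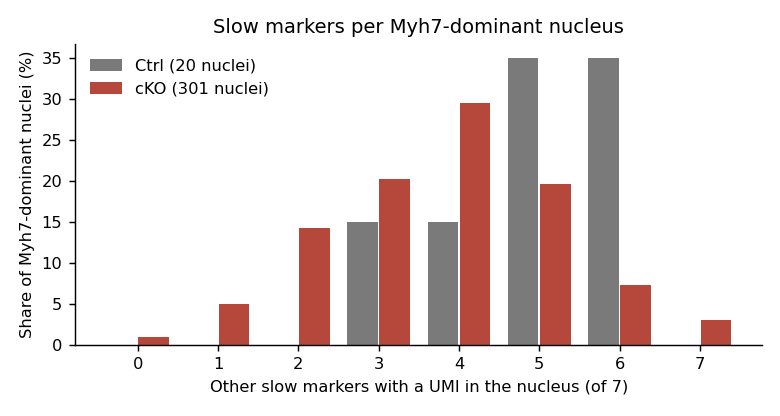
Share of the Myh7-dominant nuclei of each library (percent, y axis) by how many of the 7 other slow markers had at least 1 UMI in the nucleus (x axis), without thinning. The 20 Ctrl nuclei lie between 3 and 6 markers, and 61 of the 301 cKO nuclei lie below 3.

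A wider list of 23 slow-fibre genes without Myh7 was described in the same way. In cKO, 20 of the 23 could be compared and 10 were at least 2-fold higher than in each fast class: the 7 markers, Tpm3, Sln and Myh6. None was 2-fold lower, and the median log2 ratio was 2.44. Over all 4819 genes, 1.81% were called higher and 1.33% lower. Tpm3, the slow tropomyosin, stood at 3322 CPM in Ctrl (139 UMIs) and 2049.7 CPM in cKO (1378 UMIs), and in cKO it was 26.8-fold over Myh2-, 21.0-fold over Myh1- and 22.5-fold over Myh4-dominant nuclei. Sln encodes sarcolipin, a small regulator of the calcium pump. It had 0 UMIs in Ctrl slow nuclei and 117 in 60 cKO nuclei (174 CPM), 6.84-fold over Myh2-, 4.98-fold over Myh1- and 8.15-fold over Myh4-dominant nuclei. Actn2, Mybpc1 and Fhl1, which the list also holds, were shared with Myh2- and Myh1-dominant nuclei. Actn2, an actinin of the Z-disc, stood at 2563 CPM in cKO slow nuclei against 2959, 2227 and 694 CPM in Myh2-, Myh1- and Myh4-dominant nuclei. Mybpc1, slow myosin-binding protein C, stood at 1627 against 2667, 1932 and 630.0 CPM, and Fhl1, a LIM protein of muscle, at 915 against 752, 627 and 157 CPM.

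In Ctrl the low-count filter left 0 of the 7 markers and 2 of the 23 genes (median 1.36), because it weighs both groups by their UMIs and the slow nuclei hold few. Over all genes, 1.01% of 395 were called higher (4 genes) and 4.56% lower (18 genes). A filter that weighs both groups equally, chosen after seeing the data, left 12 of the 23 genes with a median log2 ratio of 4.74. Of these, 6 were at least 2-fold higher than in each fast class, Tnnt1, Tnnc1, Tnni1, Myl2, Atp2a2 and Tpm3, among 24 of 474 genes. This filter keeps a gene through the group where it is high, so the count describes these genes and supports nothing.

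The genes that stood furthest above all 3 fast classes in cKO, by the bound of the interval nearest to 1, were 12 in number. Beside Myh7b, Tnnt1, Tnnc1, Tnni1, Atp2a2 and Tpm3, they were Mhrt, Myh6, Prox1, Dkk2, Ror2 and Ift81. Mhrt, a long noncoding RNA, overlaps Myh7 on the opposite strand (chr14:54968678-54974349), and the default counting parameters that the study's methods give keep the strands apart. It had 239 CPM in Ctrl (10 UMIs) and 275 CPM in cKO (185 UMIs) in slow nuclei. In the fast classes it had 0 UMIs in Myh2- and Myh1-dominant nuclei of both libraries, and in Myh4-dominant nuclei 5 UMIs in Ctrl and 13 in cKO (3.65 CPM). Myh6 had 95.6 CPM in Ctrl (4 UMIs) and 164 CPM in cKO (110 UMIs), and reads of Myh7 could be split with it. The level of Myh6 is therefore uncertain.

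Prox1, a homeobox transcription factor known from slow fibres, was the single gene called higher among 30 fibre-type factors compared in cKO, where 1.81% of all genes were. It had 71.7 CPM in Ctrl (3 UMIs) and 118 CPM in cKO (79 UMIs), against 1.41, 3.09 and 6.46 CPM in the fast classes of cKO. Dkk2, a secreted modulator of Wnt signalling, had 215 CPM in Ctrl (9 UMIs) and 477 CPM in cKO (321 UMIs), spread over 5 and 87 nuclei with up to 15 UMIs in 1 nucleus. In cKO it was 14.7-fold over Myh2-, 27.3-fold over Myh1- and 30.3-fold over Myh4-dominant nuclei. Ror2, a receptor for Wnt ligands, had 23.9 CPM in Ctrl (1 UMI) and 134 CPM in cKO (90 UMIs). In the non-muscle nuclei Ror2 was at 203 and 127 CPM, so in Ctrl it was lower in the slow nuclei than there. Ift81, a part of the intraflagellar transport machinery, had 167 CPM in Ctrl (7 UMIs) and 159 CPM in cKO (107 UMIs). In cKO it was 8.66-fold over Myh2-, 12.9-fold over Myh1- and 15.3-fold over Myh4-dominant nuclei.

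Genes of the fast contractile set were lower or stood within 2-fold of a fast class. Of 19 fast-fibre genes, 18 could be compared in cKO; 5 were at least 2-fold lower than in each fast class (Tnnt3, Tnni2, Mylpf, Atp2a1 and Tpm1), 0 were higher, and the median log2 ratio was -1.24. Over all genes, 1.33% were called lower (64 genes). Tnnt3, fast troponin T, stood at 717 CPM in Ctrl (30 UMIs) and 436 CPM in cKO (293 UMIs) and was 3.28, 4.85 and 5.35 times lower than in Myh2-, Myh1- and Myh4-dominant nuclei of cKO. Tnni2, fast troponin I, had 71.7 CPM in Ctrl (3 UMIs) and 38.7 CPM in cKO (26 UMIs) and was 4.72, 5.93 and 6.46 times lower. Tpm1, alpha tropomyosin, had 335 CPM in Ctrl (14 UMIs) and 238 CPM in cKO (160 UMIs), and Atp2a1, the fast calcium pump SERCA1, 478 CPM in Ctrl (20 UMIs) and 296 CPM in cKO (199 UMIs). After thinning to 1000 UMIs, Tnnt3 had a UMI in 40.0% of the Ctrl and 23.3% of the cKO slow nuclei against 26.1% and 20.5% of the non-muscle nuclei, and Tnni2 in 5.00% and 4.00% against 4.48% and 5.13%. In cKO these shares lay close to the background, so they are not read as expression. The Tnnt3 level was higher in the nuclei with a second myosin. Tnnt3 in cKO stood at 168 CPM in nuclei with Myh7 alone and at 742 CPM in those with another myosin, and in Ctrl at 146 and 1264 CPM. Tnnt1 differed less, with 1030.2 and 818 CPM in cKO and 1562 and 889.6 CPM in Ctrl.

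The other genes furthest below the fast classes in cKO, by the bound of the interval nearest to 1, were Kcnc1, Prr33, Nos1, Gm26740 and Pde4a. By the mean log2 ratio, Myom2 (-2.80) and Smtnl2 (-2.73) lay further below than Nos1, Gm26740 and Pde4a. Kcnc1, a voltage-gated potassium channel, had 1 and 5 UMIs in Ctrl and cKO slow nuclei (7.44 CPM in cKO against 106, 131 and 48.9 CPM in the fast classes). Nos1, the neuronal nitric oxide synthase that muscle fibres carry at the membrane, had 1 and 16 UMIs (23.8 CPM against 105, 146 and 150.3 CPM). Its fast-class levels in Ctrl were higher, 311, 371 and 269.9 CPM. Pde4a, a phosphodiesterase that degrades cAMP, differed between the libraries: 143 CPM on 6 UMIs in Ctrl, within the range of its fast classes, and 20.8 CPM on 14 UMIs in cKO. Gm26740, annotated as an antisense RNA, had 884 CPM in Ctrl (37 UMIs) and 361 CPM in cKO (243 UMIs). Prr33, which overlaps Tnnt3 in the annotation, had 0 and 4 UMIs.

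The metabolic genes named here stood nearer to the level of Myh2-dominant than of Myh4-dominant nuclei. Of 18 genes of fatty acid use, 12 could be compared in cKO, 0 passed 2-fold against all 3 fast classes in either direction, and the median log2 ratio was 0.54. Cd36, a fatty acid transporter, stood at 256 CPM in slow nuclei against 419, 213 and 71.7 CPM in Myh2-, Myh1- and Myh4-dominant nuclei. Lpl, lipoprotein lipase, stood at 277 against 303, 129 and 46.9 CPM. Of 22 glycolysis and glycogen genes, 17 could be compared, 1 was lower (Pfkfb1, where 1.33% of all genes were) and the median was -0.72. Pygm, muscle glycogen phosphorylase, stood at 332 CPM against 482, 728 and 1311 CPM, and Phkg1, a subunit of phosphorylase kinase, at 638 against 792, 1648 and 2994 CPM.

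Of 20 genes of calcium handling, 19 could be compared in cKO, 3 were higher (Ryr3, Atp2a2 and Sln), 1 was lower (Atp2a1), against 1.81% and 1.33% of all genes, and the median was -0.03. Ryr1, the calcium release channel of muscle, stood at 2267 CPM against 2542, 3002 and 3638 CPM, and Trdn, triadin, at 4766 against 4079, 5741 and 8427 CPM. Ryr3, a second isoform of the release channel, had 358 CPM in Ctrl (15 UMIs) and 107 CPM in cKO (72 UMIs). Of 16 scaffold genes of the sarcomere, 15 could be compared, 1 was lower (Myom2), against 1.33% of all genes, and the median was 0.13. Ttn, titin, stood at 33182 CPM in slow nuclei and at 35209.9, 39029 and 41749.6 CPM in the fast classes. Among the fibre-type factors Esrrg, an orphan nuclear receptor of oxidative muscle, stood at 3121 CPM against 3168, 1674 and 759 CPM, close to the Myh2-dominant nuclei. Sox6, a repressor of slow genes, stood at 962 against 1133, 2125 and 3553 CPM.

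The next comparison set the 301 cKO slow nuclei against the 20 of Ctrl. Of 469 genes compared, 7.46% were at least 2-fold higher in cKO (35 genes) and 5.76% at least 2-fold lower (27 genes), with a median log2 ratio of -0.07. With a low-count filter that weighs both groups equally, chosen after seeing the data, the balance turned, to 3.08% higher (16 genes) and 11.0% lower (57 genes) of 519. The first filter admits genes mainly by their cKO level, since cKO holds most UMIs. The second also admits genes by a high Ctrl level. Each balance thus depends on its filter, and neither is read as a direction of change. Of the 23 slow-fibre genes, 11 could be compared: 0 were 2-fold higher, 1 was 2-fold lower (Mybpc1), and the median was -0.54. Malat1 takes part in the total, and leaving it and the mitochondrial genes out moved the median of all genes by 0.21. The median of the slow-fibre genes was then -0.40, over 12 genes.

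The ratios of the slow genes differed in size. Atp2a2 had a log2 ratio of -0.03 (-0.27 to 0.22) and Myh7b of 0.66 (-0.29 to 1.81). The interval of both includes 0. The sign for Atp2a2 turned under 5 of the 8 alternative settings, at values up to 0.47. Tnnt1 had -0.39 (-0.80 to 0.05). Myl2 had -0.92 (-1.29 to -0.52), Tnnc1 -0.97 (-1.48 to -0.42) and Tpm3 -0.70 (-0.95 to -0.43), with intervals below 0. Myh7, whose UMIs chose the nuclei in both libraries, stood at 0.11 (-0.14 to 0.36), a value that the choice bears on. Tnni1 and Myl3 did not pass the low-count filter and stood at -1.35 (-2.0 to -0.63) and -1.47 (-2.45 to -0.34), on 22 and 10 UMIs in Ctrl.

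Tnnt1, Atp2a2, Myl2 and Tpm3 had cKO levels above those of Ctrl in each fast class. For Tnnt1 the log2 ratio of cKO over Ctrl was 4.61, 2.52 and 3.52 in Myh2-, Myh1- and Myh4-dominant nuclei, for Atp2a2 2.19, 1.29 and 2.67, for Myl2 1.27, 2.99 and 3.69 and for Tpm3 1.90, 1.85 and 1.65. In absolute terms these fast-class levels stayed far below the slow nuclei: Tnnt1 reached 110.3 CPM in cKO Myh2-dominant nuclei. Many fast nuclei of cKO held none of the 7 markers: 190 of 335 Myh2-, 321 of 414 Myh1- and 1330 of 1632 Myh4-dominant nuclei. In Ctrl these were 146 of 175, 305 of 325 and 2011 of 2124. At least 3 markers were found in 18, 13 and 57 cKO and in 1, 3 and 14 Ctrl nuclei. The wider slow-fibre list was counted in each fast class. In Myh4-dominant nuclei, 13 of 19 slow-fibre genes compared were at least 2-fold higher in cKO and 0 lower, with a median of 1.88, against 2.33% of all 9713 genes called higher and 4.06% lower. In Myh1-dominant nuclei 5 of 15 were higher and 2 lower (Ankrd2 and Mb, the gene of myoglobin), with a median of 0.61, against 3.64% and 5.25% of 6018 genes. In Myh2-dominant nuclei 5 of 15 were higher and the same 2 lower, but 8 of the 15 lay below 0 and the median was -0.11, against 3.22% and 4.93% of 4218 genes. Whether free RNA of the more numerous slow nuclei takes part in these fast-class levels was not tested. Non-muscle nuclei had 147 CPM of Atp2a2 in the Ctrl library and 361 CPM in the cKO library, and Tnnt1 at 9.37 and 21.2 CPM.

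**Figure D5:**
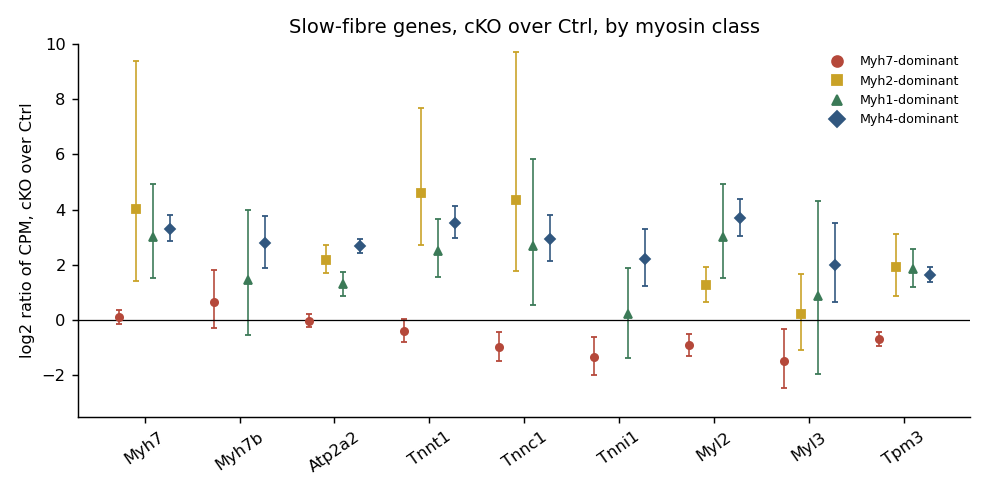
log2 ratio of the CPM of cKO over Ctrl (y axis) for 9 slow-fibre genes (x axis) in Myh7-, Myh2-, Myh1- and Myh4-dominant nuclei; error bars are exact conditional 95% intervals for counting error, and ratios with 0 UMIs in 1 library are left out. In Myh7-dominant nuclei the points lie between -1.47 (Myl3) and 0.66 (Myh7b), and in the fast classes all points drawn lie above 0.

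The 8 genes furthest above Ctrl in the slow nuclei of cKO, by the bound of the interval nearest to 1, were F830016B08Rik, Nckap5, Ky, Nxn, Myl1, Mvd, Crim1 and Sh3bgr. F830016B08Rik had 0 UMIs in the Ctrl nuclei and 430 in 150 cKO nuclei (639.6 CPM). This was 8.92-fold over the floor of 3 UMIs set for the Ctrl group, and the exact interval of the log2 ratio starts at 2.85. Its log2 ratio in Myh2-, Myh1- and Myh4-dominant nuclei was 3.92, 2.25 and 0.68. Nckap5 had 167 CPM in Ctrl (7 UMIs) and 2163 CPM in cKO (1454 UMIs), a log2 ratio of 3.69 (2.65 to 5.01) beside 4.40, 4.68 and 3.69 in the fast classes, where it was higher in cKO too.

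Nxn, nucleoredoxin, had 71.7 CPM in Ctrl (3 UMIs) and 565 CPM in cKO (380 UMIs). Its log2 ratio was 2.98 (1.42 to 5.26) in slow nuclei and 0.41, 0.55 and 0.07 in the fast classes. The Ctrl slow nuclei were the low point here, since the fast classes of Ctrl stood at 374, 413 and 409 CPM. Myl1, the fast essential light chain, followed the same order, with 167 CPM in Ctrl (7 UMIs) and 845 CPM in cKO (568 UMIs) in slow nuclei and 827, 1143 and 690.3 CPM in the fast classes of Ctrl. Its log2 ratio was 2.34 (1.28 to 3.66). Ky, a protein of the muscle Z-disc, had 23.9 CPM in Ctrl (1 UMI) and 369 CPM in cKO (248 UMIs) and a log2 ratio of 3.95 (1.46 to 9.26). Mvd, an enzyme of cholesterol synthesis, had a log2 ratio of 2.37, Crim1, a transmembrane protein that binds BMP ligands, of 1.44, and Sh3bgr of 2.50. Except for Crim1, these Ctrl levels rest on at most 7 UMIs.

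The 8 genes furthest below Ctrl, by the bound of the interval nearest to 1, were Agbl1, Ext1, Pdk4, Ugp2, Ank, Prkg1, Mybpc1 and Tacc2. Agbl1, a carboxypeptidase that trims glutamate from tubulin, had 4541 CPM in Ctrl (190 UMIs) and 974 CPM in cKO (655 UMIs), a log2 ratio of -2.22 (-2.46 to -1.98). In Myh2- and Myh1-dominant nuclei of cKO it stood at 5179 and 4029 CPM. Mybpc1 had 4134 CPM in Ctrl (173 UMIs) and 1627 CPM in cKO (1094 UMIs), a log2 ratio of -1.35 (-1.58 to -1.11) beside -0.39, -0.46 and 0.26 in the fast classes. Ugp2, an enzyme that makes UDP-glucose for glycogen, had -1.71 (-2.10 to -1.31), and Prkg1, a cGMP-dependent kinase, -1.51 (-1.86 to -1.14). In each of these 4 the Ctrl slow nuclei stood in the range of Ctrl Myh2- and Myh1-dominant nuclei or above it, except Agbl1, which stood below both, and the cKO slow nuclei stood below those classes of cKO.

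Pdk4, the kinase that shuts off pyruvate dehydrogenase when fat is burned, was lower in cKO in every class. It had 908 CPM in Ctrl (38 UMIs) and 232 CPM in cKO (156 UMIs) in slow nuclei, a log2 ratio of -1.97 (-2.49 to -1.42), beside -2.72, -2.36 and -2.29 in Myh2-, Myh1- and Myh4-dominant nuclei. Cd36 had -1.33 (-1.93 to -0.69), and the 5 genes of fatty acid use that could be compared had a median of -0.82. Ank, a transporter of pyrophosphate, had -1.75 (-2.26 to -1.20) and Tacc2, a coiled-coil protein, -1.36 (-1.67 to -1.04). Ext1, an enzyme of heparan sulfate synthesis, had 1291 CPM in Ctrl (54 UMIs) and 342 CPM in cKO (230 UMIs), but 40 of the 54 Ctrl UMIs came from 1 nucleus. Esrrg stood at 6166 CPM in Ctrl (258 UMIs) and 3121 CPM in cKO (2098 UMIs), a log2 ratio of -0.98 (-1.17 to -0.79).

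The genes of the giant sarcomere proteins titin and nebulin had a lower level in cKO than in Ctrl slow nuclei. Ttn had a log2 ratio of cKO over Ctrl of -0.53 (-0.60 to -0.47) in slow nuclei and -0.44, -0.30 and -0.10 in the fast classes. Neb, nebulin, had -0.61 (-0.74 to -0.47) and -0.06, 0.19 and 0.27. Of 16 scaffold genes, 10 could be compared, 1 was 2-fold lower (Nrap), against 5.76% of all genes, and the median was -0.63. Ldb3, a protein of the Z-disc, stood at 0.21 (-0.09 to 0.52).

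The study also discusses p53 targets and damage genes, Mef2 factors and ubiquitin ligases. Of 28 p53 and damage genes, 1 passed the filter for the slow nuclei. Trp63, a p53-family transcription factor, had 143 CPM in Ctrl (6 UMIs) and 473 CPM in cKO (318 UMIs), in 5 of 20 and 131 of 301 nuclei. Thinned to 1000 UMIs, 15.0% and 25.5% of the slow nuclei had a UMI of it, against 5.22% and 5.13% of the non-muscle nuclei (unthinned 9.60% and 8.20%). Its log2 ratio was 1.72 (0.58 to 3.18), beside 1.40, 1.12 and 0.27 in Myh2-, Myh1- and Myh4-dominant nuclei. In cKO its level in the slow nuclei lay below that of each fast class, 526, 997 and 558 CPM. Atf3, a stress-induced transcription factor, had 0 UMIs in the Ctrl slow nuclei, which allows up to 71.7 CPM at the one-sided floor of 3 UMIs. In cKO it had 82 UMIs in 27 of 301 nuclei (122 CPM, 97.0 to 151), and 32 of these came from 3 nuclei. Thinned to 1000 UMIs, Atf3 had a UMI in 6.18% of the cKO slow nuclei and in 0 of 39 non-muscle nuclei of cKO, whose interval reaches 9.03%, so the shares overlap within counting error. The Myh2-, Myh1- and Myh4-dominant nuclei of cKO had 119, 97.7 and 39.1 CPM of Atf3. Eda2r, a receptor induced by p53, had 0 and 53 UMIs, with 69.3, 159 and 68.3 CPM in the fast classes of cKO. None of these 3 genes was called higher in slow nuclei than in the fast classes of cKO.

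Of the Mef2 factors, which drive muscle genes, Mef2c had 1697 CPM in Ctrl (71 UMIs) and 2030.4 CPM in cKO (1365 UMIs) and a log2 ratio of 0.26 (-0.09 to 0.62). Mef2a had 95.6 CPM in Ctrl (4 UMIs) and 259 CPM in cKO (174 UMIs), a log2 ratio of 1.44 (0.05 to 3.33) beside -0.09, -0.31 and -0.31 in the fast classes, on 4 Ctrl UMIs. Mef2d had 0.95 (-0.31 to 2.59). Mylk4, a myosin light chain kinase, had 430.2 CPM in Ctrl (18 UMIs) and 167 CPM in cKO (112 UMIs), a log2 ratio of -1.37 (-2.09 to -0.56), and it was lower in cKO in the fast classes as well, at -2.11, -1.31 and -0.85. Trim63, the ubiquitin ligase MuRF1, had -1.5 (-2.02 to -0.94) in slow nuclei and -0.91, -0.42 and -1.46 in the fast classes. Fbxo32, the ligase Atrogin-1, had -0.27 (-0.96 to 0.51) and -1.03, -0.92 and -1.36.

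Of 11 stretch-responsive genes, which summed to 3059 CPM in Ctrl and 2307 CPM in cKO slow nuclei, 3 could be compared between the libraries, 0 were called (against 7.46% of all genes higher and 5.76% lower), and the median log2 ratio was 0.09. With the equally weighted filter 4 were compared, 1 was lower (Ankrd2, against 11.0% of all genes) and the median turned to -0.29. Ankrd2 passes that filter through its high Ctrl level, so this call and the turn of the median support nothing. Xirp2, an actin-binding protein of strained muscle, had a log2 ratio of -0.67 (-1.12 to -0.20), Flnc, the muscle filamin, of 0.45 (-0.32 to 1.34) and Fhl1 of 0.09 (-0.40 to 0.62). Ankrd2, a stretch-responsive protein of slow muscle, had 693 CPM in Ctrl (29 UMIs) and 126 CPM in cKO (85 UMIs) without passing the low-count filter. Ankrd2 was lower in cKO Myh2- and Myh1-dominant nuclei too, at -1.62 and -1.35. Of 16 denervation and synapse genes, 6 could be compared with the fast classes in cKO, 0 were higher and 1 was lower (Lrp4), against 1.81% and 1.33% of all genes. Ncam1, a cell adhesion molecule of denervated fibres, had 358 CPM in Ctrl (15 UMIs) and 138 CPM in cKO (93 UMIs), with 10 of the Ctrl UMIs in 1 nucleus. Of 20 nuclear envelope genes in the files, 9 could be compared in cKO with a median of 0.01 and 0 calls. Tmem38a, a cation channel of the reticulum and nuclear envelope, had a log2 ratio of cKO over Ctrl of 0.33 (-0.34 to 1.08).

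Markers of other cell types were sparse in both groups of slow nuclei, and the fibroblast and immune lists were higher per UMI in the small Ctrl group. Fibro-adipogenic progenitor markers summed to 287 CPM in Ctrl (12 UMIs, 5 of 10 genes at 0) and 52.1 CPM in cKO (35 UMIs, 2 of 10 at 0). In Myh4-dominant nuclei they summed to 121 and 72.8 CPM, and in the non-muscle nuclei to 8562 and 7445 CPM. The rule limits 4 of these 10 genes to fewer than 3 UMIs in a nucleus, and likewise 3 of the 10 endothelial and 1 of the 8 immune genes, so low sums of these lists are partly set by the rule. Immune markers summed to 143 CPM (6 UMIs) and 11.9 CPM (8 UMIs), of which Mrc1, a macrophage receptor, made 5 and 5 UMIs. Endothelial markers summed to 23.9 and 38.7 CPM and satellite cell markers to 23.9 and 14.9 CPM. Smooth muscle and pericyte markers summed to 143 and 214 CPM, most of it Abcc9, which Myh4-dominant nuclei held at 294 and 335 CPM. Adipocyte markers summed to 382 and 292 CPM, most of it Acsl1, which fibres express too. Schwann cell markers summed to 71.7 and 16.4 CPM and tendon cell markers to 47.8 and 11.9 CPM. Myotendinous junction markers summed to 574 CPM in Ctrl, where 9 of 24 UMIs were Slc24a2 in 1 nucleus, and to 198 CPM in cKO. The part of these cell types in the cKO to Ctrl differences was not tested.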

How the data were processed

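Members and gene lists were chosen with earlier results of these data known. The authors aligned the reads to mm10 with Cell Ranger 3.1.0 (submitters' processing notes) and deposited raw UMI counts per gene and barcode, in whole numbers, for 27998 genes. Coordinates came from GENCODE M21 (GRCm38), which holds 27645 of the gene identifiers and lacks 353. The study's methods give default parameters, which in this version count reads on the strand of the annotated exons; whether the reference was one that takes introns as exons, and its annotation release, are not given in the sources used here, and nuclear RNA is rich in introns. The labels name release v2 of the 3′ kit and the study's methods name v3.1, so the chemistry is unsettled.

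Nuclei were filtered and classed as stated above, without clustering. Raw counts were summed per library and class. A gene was compared when the pooled rate gave at least 10 UMIs in the smaller group, and called at a CPM ratio of at least 2. A group with 0 UMIs was set to the floor of 3 UMIs. Named genes were the 8 markers, the 12 genes of the rule, up to 4 genes of most UMIs per list, the 12 highest and 8 lowest genes against the fast classes in cKO, the 8 highest and 8 lowest of cKO over Ctrl, and genes the study discusses; called genes of a list are named besides. The highest and lowest genes were ranked by the bound of the ratio's interval nearest to 1, not by the ratio. Depth was 10410316 and 8446070 UMIs per library. Scrublet (scanpy 1.11.5, expected rate 0.06) marked 0 nuclei at its automatic threshold, so no nucleus was left out by it; leaving out the 8% highest scores (307 Ctrl and 313 cKO nuclei, 0 and 19 of them Myh7-dominant) is an alternative. The scripts (scipy 1.17.1, numpy 2.4.6 and pandas 2.3.3 under Python 3.11.15, with figures by matplotlib 3.10.9) were tested on simulated data. In all, 10 alternatives were planned, and an equally weighted low-count filter was added after seeing the data.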

Additional observations from a re-analysis of the deposited data

Results flagged for a closer look

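Myl2 and Tpm3 had a lower level in cKO than in Ctrl in the Myh7-dominant nuclei and a higher one in all 3 fast classes. The log2 ratio of cKO over Ctrl was -0.92 for Myl2 in slow nuclei and 1.27, 2.99 and 3.69 in Myh2-, Myh1- and Myh4-dominant nuclei. For Tpm3 it was -0.70 and 1.90, 1.85 and 1.65. The difference between the classes was not tested, since each group has 1 library.

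Nuclei of undetermined myosin, with fewer than 3 myosin UMIs and fewer than 3 non-muscle UMIs, enter no comparison of levels in the report, and they held slow transcripts in cKO above the level of the same nuclei in Ctrl. Their cKO levels were 62.5 CPM for Myh7b, 232 for Tnnt1, 95 for Tnnc1, 233 for Myl2 and 1019 for Atp2a2. In Ctrl the levels were 3.87, 29.0, 5.80, 16.4 and 108 CPM. These nuclei numbered 686 in Ctrl and 839 in cKO, with medians of 1468 and 1189 UMIs.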

How the results depend on the processing

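No paired analysis was possible because each group has 1 library. Of 59 values of the 6 main results under the alternatives, 46 stayed within their counting interval, 12 moved and 1 reversed. The difference in the share of Myh7-dominant nuclei (7.18 points) became 5.80 with a Myh7 share of at least 80%, 5.31 with at least 5 myosin UMIs and 2.68 after thinning to 500 UMIs. The median log2 ratio of slow-fibre genes over the fast classes in cKO (2.44) became 3.54, 3.07 and 3.52 under the same settings and 2.91 with at least 50 UMIs expected. In Ctrl (1.36) it became 0.56 after thinning, 3.43 with no low-count filter and 4.74 with the equally weighted filter, which was chosen after seeing the data. The fast-fibre median in cKO (-1.24) became -1.78 at 80%. The p53 and damage genes of cKO over Ctrl (1.72, from Trp63 alone) became 0.56 over 2 genes with equal weights and reversed to -0.55 over 9 genes with no filter. With at least 50 UMIs expected, the Ctrl slow-fibre list and the p53 list gave no value. The slow-fibre median of cKO over Ctrl lay between -0.70 and -0.37. Of the values of single genes, 125 of 176 against the fast classes and 214 of 224 of cKO over Ctrl stayed within their intervals. All 176 kept their sign; of the 224, 8 did not: 5 of Atp2a2, 2 of Atp2a1 and 1 of Tnnt3 (0.22 at 80%). The equally weighted filter called 57 of 519 genes lower in cKO slow nuclei and 16 higher, against 27 and 35. The Ctrl values rest on 41843 UMIs in 20 nuclei, with a floor of 71.7 CPM.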

Other observations

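Some genes outside the lists and the naming rule were chosen after their values were seen, for being higher in both libraries. The 2 libraries are measured differently here. The cKO value is the mean of the log2 ratios over the 3 fast classes. The Ctrl expectation pools the UMIs of these classes, most of them from Myh4-dominant nuclei. It does not show that a gene exceeds the Ctrl Myh2- or Myh1-dominant nuclei. Car3, a carbonic anhydrase abundant in slow fibres, was on average 2.19 (log2) above the fast classes in cKO, and it had 41 UMIs in Ctrl slow nuclei where 2.17 would be expected at the level of the fast classes. Astn2 was 2.47 above them in cKO, with 23 UMIs in Ctrl slow nuclei where 2.42 would be expected at the level of the fast classes. Tsga10 was 2.59 above them, with 14 UMIs in Ctrl slow nuclei where 1.07 would be expected at the level of the fast classes.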
